A study of Mus musculus with 30 samples.

Results

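The expressed intergenic lncRNA genes of the early mouse embryo were examined in single-embryo RNA-seq data from *Dis3* wild-type, heterozygous (het) and homozygous null embryos. A gene was included when GENCODE vM21 gives it the biotype lincRNA and when its mean level was at least 5 CPM, the raw count scaled by the summed gene counts of its library, across the 23 embryos. Of the 5614 lincRNA genes in the count files, 2375 had a count in any library and 153 met the rule. Another 4, the snoRNA host genes *Snhg6*, *Snhg12*, *Snhg18* and *Snhg20*, reached the level but were left out by name. The 153 genes stand among 55487 genes in all and 9583 genes of any biotype at the same level.

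The embryos came from matings of *Dis3* het mice, whose null allele lacks exons 3 to 5 after CRISPR-Cas9 editing and imprecise repair. At embryonic day 2.5 (E2.5) the groups held 6 wild-type, 2 het and 4 null embryos. Those at E2.75 held 3, 5 and 3 embryos in the same order, so most het embryos were of the later stage. Each embryo gave 1 library, made from oligo-dT captured RNA with added ERCC spike-ins. The mothers of all embryos were het, so an oocyte store of *Dis3* RNA could be shared by the genotypes, and 2 knockout lines were made without the labels saying which one an embryo came from. Separately, POU6F1 binding was mapped by ChIP-seq in mouse embryonic stem cells transfected with *Pou6f1-mCherry*, in 2 replicates.

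Intergenic lncRNAs are capped and often spliced and polyadenylated transcripts that lie between coding genes. Many are retained in the nucleus and turned over by the nuclear RNA exosome, a multi-subunit complex whose catalytic subunits include DIS3 and EXOSC10. A few have well described roles, such as *Xist*, which coats the inactive X chromosome of female cells, *Neat1*, the scaffold of nuclear paraspeckles, and *Malat1*, a nuclear speckle RNA. Most of the genes described here carry only a clone or model name, with 90 named Gm and 38 named Rik.

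The libraries held 1690192 to 14015980 counts on genes (median 8030848). *Dis3* itself, after TMM scaling, ranged from 0 to 21.5 CPM in the 7 null embryos, from 30.4 to 59.2 CPM in the 7 het embryos and from 18.0 to 147 CPM in the 9 wild-type embryos. The lowest wild-type value, that of replicate 6 at E2.5, fell inside the null range, so null against wild-type is also given without it. As counted, reads that lay outside annotated exons, even in part, went to no gene. The share of such reads was 32.3% to 43.9% in null embryos, 21.2% to 27.9% in het embryos and 21% to 33.4% in wild-type embryos. It moved with the genotype, and its part in the differences below was not tested. All 9 morula and lineage markers passed the filter on low counts, with a summed level of 602 to 2365 CPM, and 2 of them were called lower in null than in het embryos. None of the 8 cumulus, 3 blood and 3 fibroblast markers passed it, with 3, 1 and 1 of them at 0 in every library. The summed cumulus level reached 18.9 CPM in null, 2.71 CPM in het and 0.825 CPM in wild-type embryos. The null maximum came from *Has2*, which had counts in 1 library only, and the null median was 0.986 CPM. The part of this level in the results was not tested. Of the oocyte or polar body markers, 5 were tested and none was called. In whole embryos, fewer cells of a type and less RNA per cell cannot be told apart.

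Start regions of some of the genes that changed in null embryos are shown as examples rich and poor in CpG dinucleotides. The windows below run from 250 bases before to 50 bases after the annotated start in GRCm38.p6, 5′ to 3′ on the gene's strand. Capitals mark the GC box GGGCGG or its reverse complement CCGCCC, and the CCAAT box or its reverse complement ATTGG. *4833445I07Rik* (chr9:108567283-108567582, plus strand), *Gm42997* (chr3:130730210-130730509, plus strand) and *4933433G15Rik* (chr9:75409934-75410233, plus strand) start beside a coding gene read in the other direction, and were among the 12 largest rises.
4833445I07Rik: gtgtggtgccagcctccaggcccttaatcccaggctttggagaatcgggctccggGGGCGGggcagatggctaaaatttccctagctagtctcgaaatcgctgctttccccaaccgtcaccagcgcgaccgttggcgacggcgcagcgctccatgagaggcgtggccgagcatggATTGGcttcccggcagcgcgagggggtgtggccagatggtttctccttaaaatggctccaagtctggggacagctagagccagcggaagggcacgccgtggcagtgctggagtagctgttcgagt
Gm42997: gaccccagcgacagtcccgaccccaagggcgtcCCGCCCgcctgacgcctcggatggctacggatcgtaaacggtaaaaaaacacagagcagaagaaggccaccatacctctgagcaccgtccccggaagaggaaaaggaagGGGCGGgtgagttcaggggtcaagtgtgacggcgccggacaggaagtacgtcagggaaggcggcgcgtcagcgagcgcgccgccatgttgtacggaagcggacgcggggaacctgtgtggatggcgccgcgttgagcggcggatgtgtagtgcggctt
4933433G15Rik: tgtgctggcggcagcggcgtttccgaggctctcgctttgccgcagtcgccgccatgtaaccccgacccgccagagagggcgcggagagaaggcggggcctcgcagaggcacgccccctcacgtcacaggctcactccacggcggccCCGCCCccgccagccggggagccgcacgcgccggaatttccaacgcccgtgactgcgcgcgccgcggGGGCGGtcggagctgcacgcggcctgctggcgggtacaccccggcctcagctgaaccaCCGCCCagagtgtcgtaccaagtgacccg
*1700096K18Rik* (chr5:25529763-25530062, plus strand) rose without such a coding partner, and *AC163629.2* (chr17:29432585-29432884, plus strand) rose from a start with only 4 CpG dinucleotides.
1700096K18Rik: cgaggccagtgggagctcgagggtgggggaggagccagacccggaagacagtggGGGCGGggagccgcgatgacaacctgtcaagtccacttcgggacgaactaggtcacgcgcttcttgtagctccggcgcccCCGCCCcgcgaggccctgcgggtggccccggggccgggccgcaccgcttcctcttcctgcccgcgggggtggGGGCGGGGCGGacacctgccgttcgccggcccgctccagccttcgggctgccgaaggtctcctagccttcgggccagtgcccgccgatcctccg
AC163629.2: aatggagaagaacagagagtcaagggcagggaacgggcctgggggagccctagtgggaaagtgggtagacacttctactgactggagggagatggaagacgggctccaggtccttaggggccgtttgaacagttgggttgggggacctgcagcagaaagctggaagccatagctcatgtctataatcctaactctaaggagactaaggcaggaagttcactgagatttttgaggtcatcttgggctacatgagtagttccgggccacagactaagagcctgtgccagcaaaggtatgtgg
The genes that fell, *Gm40977* (chr13:62097498-62097797, plus strand) and *EU599041* (chr7:43213789-43214088, plus strand), also had 4 CpG dinucleotides each.
Gm40977: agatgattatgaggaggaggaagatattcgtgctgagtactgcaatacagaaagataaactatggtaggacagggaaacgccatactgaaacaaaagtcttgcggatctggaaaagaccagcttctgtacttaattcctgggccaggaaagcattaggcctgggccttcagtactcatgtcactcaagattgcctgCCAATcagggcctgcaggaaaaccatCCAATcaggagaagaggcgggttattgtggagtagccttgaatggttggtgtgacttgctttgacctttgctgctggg
EU599041: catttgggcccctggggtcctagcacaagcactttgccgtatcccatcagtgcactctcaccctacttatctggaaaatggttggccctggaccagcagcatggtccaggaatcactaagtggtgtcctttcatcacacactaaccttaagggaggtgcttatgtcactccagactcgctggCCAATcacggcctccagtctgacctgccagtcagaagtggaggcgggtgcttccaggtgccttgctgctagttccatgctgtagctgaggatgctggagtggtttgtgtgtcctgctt
Among all 153 windows the median was 6 CpG dinucleotides, against 20 in expressed coding genes and 17 over 13379 genes tested. A GC box was found on either strand in 24.2% of the 153 windows, in 37.2% of those of the 43 genes called higher in null than in het embryos, and in 53.8% over all genes tested. Of those 43 genes, 25 had reached 5 CPM in null embryos only, and their share was not split by wild-type level. The CCAAT box, searched on both strands, was in 47.7% of the 153 and in 39.2% of all windows. The octamer ATGCAAAT, read by many POU factors, was in 3.92% of the 153 and in 1.52% of all, on either strand. These matches are letters in a window and not binding sites.

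The 153 genes together took 0.335% to 0.925% of the gene counts of a library. Their mean levels ran from 5.03 to 911 CPM with a median of 11.7 CPM, and 23 of them reached 50 CPM. The counts were concentrated in few genes, since *Xist* held 14.8% of them and the 10 highest genes 53.7%. When each library was thinned to 1690192 counts, 129 to 149 of the 153 genes had at least 1 count. The thinned range was 144 to 149 genes in null embryos, 135 to 143 in het embryos and 129 to 147 in wild-type embryos. This order partly follows from the choice of genes, since 33 of the 153 reached 5 CPM in null embryos only. Over all genes, the thinned ranges overlapped, with 13719 to 16236 in null, 13892 to 15558 in het and 13218 to 15687 in wild-type embryos.

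Per kilobase of exon, the order of levels changed. *2310040G24Rik* (chr6:86483376-86488227, 2 exons) was highest at 623 CPM per kb, followed by *Gm29290* (chr1:153939226-153941290) at 279 CPM per kb and *Gm49064* (chr13:67226997-67229969) at 245 CPM per kb. *Malat1*, with 6983 exonic bases, came 5th at 85.8 CPM per kb, and *Xist* 11th at 50.7 CPM per kb. The median over the 153 genes was 8.10 CPM per kb. Levels of *2310040G24Rik* had a wild-type median of 77.7 CPM (0.735 to 1775) and a null median of 694 CPM (145 to 1835), so that the ranges overlapped in their upper part. *Gm49064* ranged from 107 to 678 CPM over all embryos, within the range of *2310040G24Rik*.

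The comparison of null and het embryos asks which RNAs differ when DIS3 is absent. With both stages merged, 43 of the 153 lncRNA genes were called higher and 2 lower (edgeR, adjusted p under 0.1 and a change beyond 2-fold). Over all 13415 genes tested, 3.67% were called higher and 2.06% lower, against 28.1% and 1.31% of the 153. The median log2 fold change of the 153 was 0.90, beside 0.02 over all genes tested, and 114 of the 153 had a value above 0. In 27 of them every null embryo was above every het embryo, a pattern found in 2.2% of all genes tested. None had every null embryo below every het embryo, against 0.686% of all genes tested. The fit with stage as a covariate gave a median of 0.65 for the 153, with 43 called higher and 2 lower.

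Part of this count follows from how the genes were chosen. The level that admitted them was averaged over all embryos, and 33 reached 5 CPM in null embryos but in neither other genotype, so these had to be higher in null embryos. Of those 33, 25 were called higher. When lincRNA genes were instead chosen by a mean of at least 5 CPM in the 9 wild-type embryos alone, which do not enter the null against het contrast, 17 of 120 (14.2%) were called higher and 2 (1.67%) lower. Among all 9217 genes with that wild-type level, 2.08% were called higher and 2.59% lower. The 120 had a median log2 fold change of 0.36, beside -0.05 over those genes, and 9 of the 120 had every null embryo above every het embryo. In the separate fits of each stage, the median of those tested was smaller, at 0.23 at E2.5 and 0.12 at E2.75. All genes at that wild-type level had -0.098 and -0.13 in these fits.

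**Figure D1:**
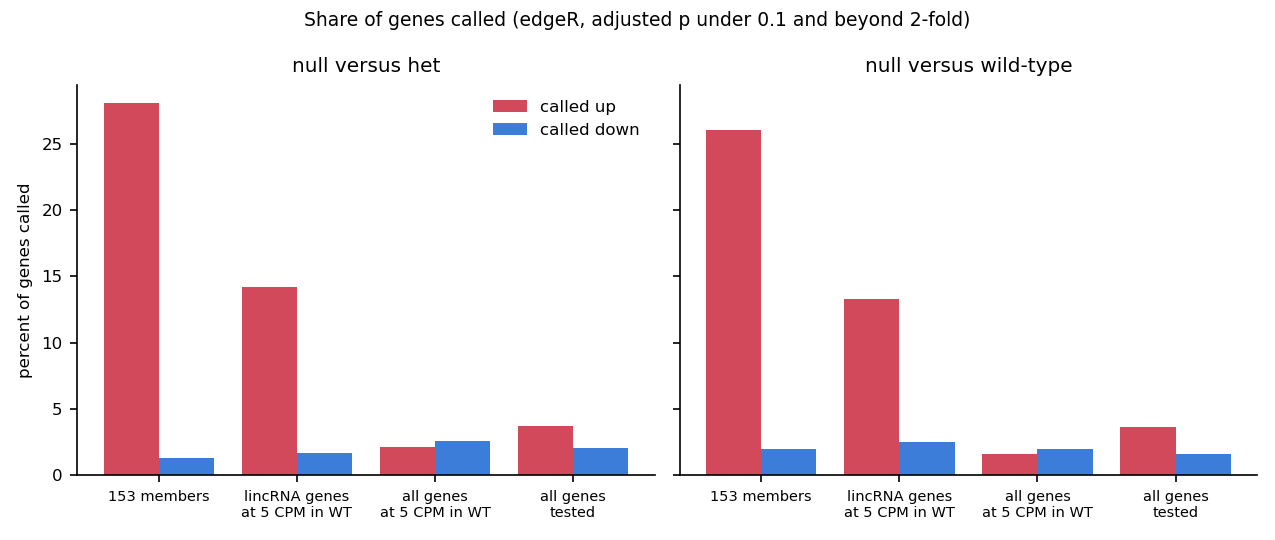
Share of genes called higher (red) or lower (blue), in percent, in null against het and null against wild-type embryos, for the 153 genes, for the 120 lincRNA genes at 5 CPM in wild-type embryos, for all genes at that wild-type level and for all genes tested. In null against het embryos the red bars stand at 28.1%, 14.2%, 2.08% and 3.67%.

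Of the 43 genes called higher, 25 had reached 5 CPM in null embryos only, so that the choice of genes fixed their low level in the other genotypes. *Gm43332* showed the largest fitted change. It is a single-exon gene (chr5:149183183-149184226, plus strand) inside the span of *Hmgb1*, which is annotated on the opposite strand and encodes a chromatin protein. It had 5 counts in all 7 het embryos together, 10 in the 9 wild-type embryos and 645 in the 7 null embryos. In null embryos it ranged from 4.27 to 35.3 CPM (median 15.8), with at most 0.259 CPM in het and 0.780 CPM in wild-type embryos. The groups did not overlap, and the log2 fold change was 7.76 (SE 1.21, adjusted p = 0.000402). *Hmgb1* was itself called higher, with a log2 fold change of 1.09 (adjusted p = 0.0416). The exon of *Gm43332* shares 26 bases with *Mm2pr* and none with the exons of *Hmgb1*. Counting without strand therefore gives reads there to *Gm43332*, also where they come from unspliced *Hmgb1* RNA. The part of such reads in its level was not tested.

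*4833445I07Rik* (chr9:108567533-108569174, plus strand, 2 exons) was the clearest rise by level. Null embryos ranged from 43.4 to 161 CPM with a median of 75.3 CPM. Het embryos ranged from 0 to 2.01 CPM with a median of 0.123 CPM, and wild-type embryos from 0 to 2.66 CPM with a median of 0.653 CPM. Every null embryo was thus above every other embryo, and the log2 fold change against het was 7.21 (SE 1.06, adjusted p = 0.000284). The gene starts 99 bases from the start of *Ndufaf3*, an assembly factor of mitochondrial complex I, which had a log2 fold change of 1.16 (adjusted p = 0.339).

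The exons of *4833445I07Rik* also hold 2 microRNA hairpins on the same strand, *Mir191* (chr9:108568319-108568392) and *Mir425* (chr9:108568777-108568861). The gene starts 1949 bases downstream of *Impdh2* on the same strand, which had a log2 fold change of 0.36 (adjusted p = 0.457). Whether its reads come from a primary microRNA transcript was not tested. The mature sequences, from RefSeq on GRCm38.p6 with the seed (bases 2 to 8) in capitals, are given to show which microRNAs this host carries.
mmu-miR-191-5p: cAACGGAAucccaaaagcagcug
mmu-miR-191-3p: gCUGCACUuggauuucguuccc
mmu-miR-425-5p: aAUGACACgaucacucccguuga
mmu-miR-425-3p: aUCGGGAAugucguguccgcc
The 4 seeds differ from each other. Mature microRNAs were not measured, since oligo-dT capture and gene counting do not report them.

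*AC163629.2* (chr17:29432835-29466267, plus strand, 5 exons) went from 0 counts in 4 of 7 het embryos to 8.24 to 58.0 CPM in null embryos (median 31.1). The highest het embryo had 0.712 CPM and the highest wild-type embryo 0.799 CPM, so the groups did not overlap. Its log2 fold change against het was 7.02 (SE 1.06, adjusted p = 0.000308). Other annotated genes overlap 55.0% of its exonic bases, so its level is uncertain.

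*Gm30373* (chr9:43924751-43970253, minus strand, 3 exons) ranged from 16.5 to 77.4 CPM in null embryos (median 51.4) and from 0.186 to 9.34 CPM in het embryos (median 0.422). Its highest wild-type value was 3.10 CPM. The log2 fold change was 4.81 (SE 1.08, adjusted p = 0.00939), and every null embryo exceeded every het and wild-type embryo. The nearest coding gene, *Thy1*, which encodes a surface glycoprotein, is 73131 bases away.

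*1700096K18Rik* is a single-exon gene (chr5:25530013-25531466, plus strand). Null embryos ranged from 58.7 to 248 CPM (median 98.5), het embryos from 3.34 to 15.4 CPM (median 6.33) and wild-type embryos from 1.34 to 21.1 CPM (median 3.95). All null embryos were above all others. It was one of the few strong risers already present at a mean of at least 5 CPM in wild-type embryos, and rose by 4.29 on the log2 scale (SE 0.61, adjusted p = 0.000239).

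**Figure D2:**
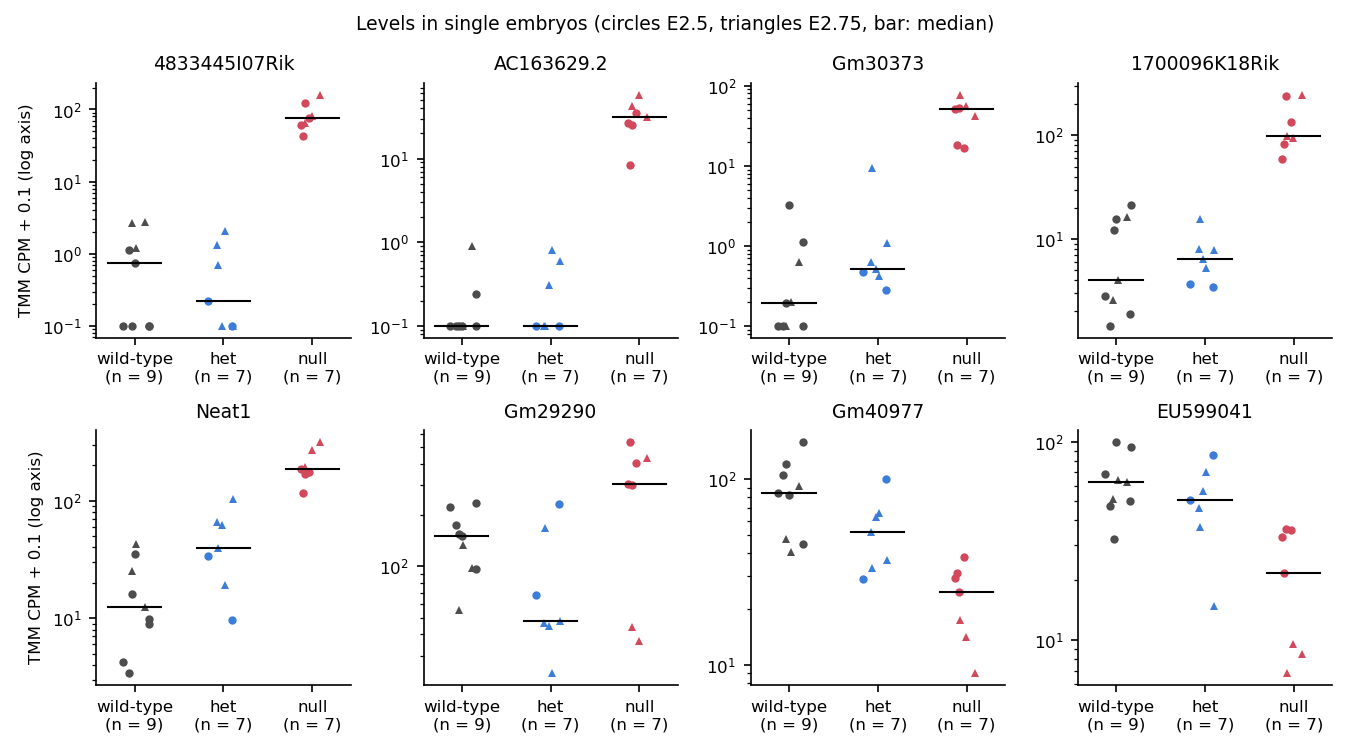
TMM-scaled CPM plus 0.1 on a log axis in each wild-type (n = 9), het (n = 7) and null (n = 7) embryo for 8 lncRNA genes, with circles for E2.5, triangles for E2.75 and a bar at the median. In *4833445I07Rik*, *AC163629.2*, *Gm30373*, *1700096K18Rik* and *Neat1* all null points lie above all others, in *Gm29290* they overlap, and in *Gm40977* and *EU599041* the null medians are the lowest.

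The other genes among the 12 largest rises had log2 fold changes between 4.27 and 4.95. *Gm13025* (adjusted p = 0.0232), *B930059L03Rik* (adjusted p = 0.00391), *Gm42997* (adjusted p = 0.00132), *4933433G15Rik* (adjusted p = 0.0118) and *Gm36839* (adjusted p = 0.00712) had every null embryo above every het embryo. The null medians of these 5 genes were 21, 51.8, 22.1, 28.4 and 33.0 CPM, against het medians of 0.603, 2.58, 0.904, 0.647 and 1.37 CPM. *2810405F17Rik* and *4930532G15Rik* overlapped het embryos and had adjusted p-values of 0.0943 and 0.0781. One null embryo had no count of *4930532G15Rik*, while the null median was 15.0 CPM. The call of *2810405F17Rik* was lost when any of 11 embryos was left out, and that of *4930532G15Rik* with any of 9.

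Across the 43 genes called higher, 26 had every null embryo above every het embryo, and in 38 all 7 null embryos were above the het median. The 43 all had a positive log2 fold change in the separate fits of both stages, with medians of 2.67 at E2.5 and 3.14 at E2.75, although the same embryos gave the merged call.

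Of the 15 lncRNA genes with the highest mean CPM, 2 were called higher and none lower in null against het embryos, with a median log2 fold change of 0.24. *Neat1* (chr19:5824708-5845478, minus strand) ranged from 117 to 316 CPM in null embryos (median 185), from 9.56 to 103 CPM in het embryos (median 39.5) and from 3.29 to 42.8 CPM in wild-type embryos (median 12.2). The null embryos lay above all others, and het and wild-type embryos overlapped. Against het the log2 fold change was 2.10 (SE 0.50, adjusted p = 0.0146). With libraries scaled to their ERCC counts the *Neat1* difference from het was 1.01 and its call was lost (adjusted p = 0.216). *Malat1*, the neighbour of *Neat1* on the same strand 22036 bases away, ranged from 430 to 1257 CPM in null and from 387 to 879 CPM in het embryos, with a log2 fold change of -0.14 (SE 0.28, adjusted p = 0.852).

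*Gm29290*, a spliced gene 29503 bases from *Glul*, which encodes glutamine synthetase, ranged from 36.4 to 537 CPM in null embryos (median 303) and from 23.5 to 232 CPM in het embryos (median 48.0). The groups overlapped. Its log2 fold change was 1.70 (SE 0.52, adjusted p = 0.0632). Its edgeR call was lost when any of 8 embryos was left out and with ERCC scaling. Against wild-type embryos, with a median of 150 CPM, the difference was 1.00 (adjusted p = 0.31).

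The remaining genes of the highest levels did not pass the test. *2310040G24Rik* had a log2 fold change of 1.41 with an SE of 1.21. *Tmem250-ps*, a transcribed pseudogene, had -0.74 (adjusted p = 0.264), and *Gm33466* 0.83 (adjusted p = 0.587). *Gm20939*, *Gm49064*, *Gm34059*, *Gm46430*, *Gm4961*, *D930016D06Rik*, *AU020206* and *1700020I14Rik* (the *Cyrano* gene) lay between -0.49 and 0.36, with adjusted p-values of at least 0.527.

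**Figure D3:**
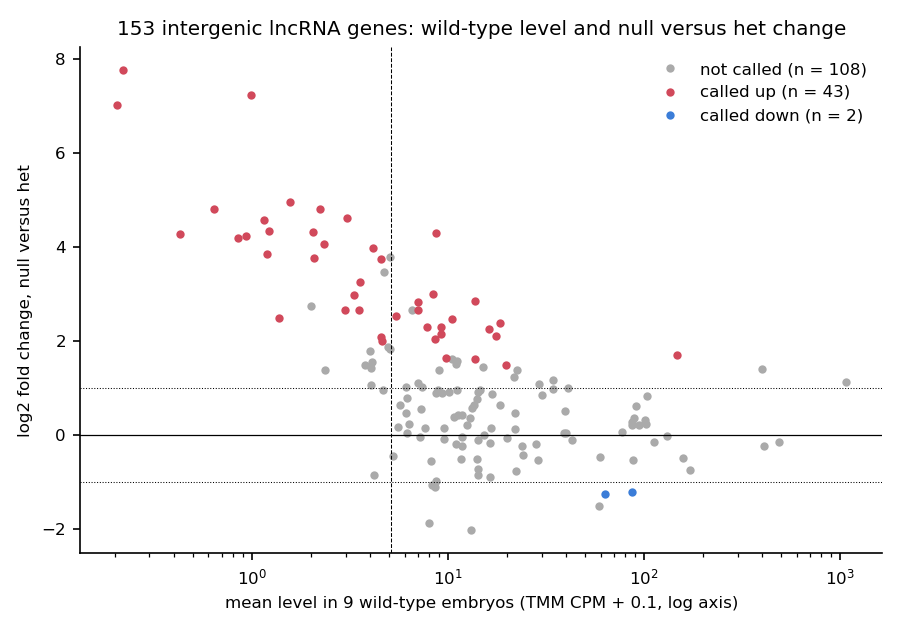
Mean level of each of the 153 genes in the 9 wild-type embryos (TMM CPM plus 0.1, log axis) against the log2 fold change of null over het embryos. Red points are the 43 genes called higher, blue points the 2 called lower and grey points the 108 not called. Dotted lines mark a log2 fold change of 1 and -1 and the dashed line a wild-type level of 5 CPM. The rises above 4 lie to the left of the dashed line, except that of *1700096K18Rik*.

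The lncRNA genes *Gm40977* and *EU599041* fell in null embryos. *Gm40977* (chr13:62097748-62112047, plus strand, 4 exons) ranged from 8.87 to 38.1 CPM in null embryos (median 24.4), from 28.9 to 101 CPM in het embryos (median 51.6) and from 40.2 to 159 CPM in wild-type embryos (median 84.6). Null and het ranges overlapped, null and wild-type ranges did not. Its log2 fold change was -1.21 against het (SE 0.36, adjusted p = 0.0583) and -1.88 against wild-type (SE 0.36, adjusted p = 0.00157). *EU599041* (chr7:43214039-43226842, plus strand, 5 exons) ranged from 6.67 to 36.0 CPM in null, from 14.8 to 85.9 CPM in het and from 32.3 to 99.7 CPM in wild-type embryos. The null range overlapped both others, and its log2 fold change was -1.25 against het (SE 0.40, adjusted p = 0.0779). Each lies near a zinc-finger gene, *Zfp808* at 17839 bases and *Zfp936* at 21930 bases. *Gm40977* lost its call without E2.5 het replicate 2 or E2.75 het replicate 1, and *EU599041* without any of 8 embryos.

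Null against wild-type embryos, which shares the null embryos with the comparison above, called 40 of the 153 genes higher and 3 lower. All genes tested gave 3.66% higher and 1.59% lower, and the 153 gave 26.1% and 1.96%. The median log2 fold change of the 153 was 0.37, beside -0.02 over all genes tested. Of the 120 genes chosen on wild-type level, 16 were called higher (13.3%) and 3 lower (2.5%), beside 1.62% and 1.95% of all genes at that level. Their median was -0.06, with 58 values above 0 and 62 below, although this choice uses the wild-type embryos of the contrast. Without E2.5 wild-type replicate 6, 35 genes were called higher and 3 lower. *Neat1* had a log2 fold change of 3.54 against wild-type embryos (SE 0.48, adjusted p = 5.09e-05). In 23 genes every null embryo was above every wild-type embryo, a pattern seen in 1.55% of all genes tested, and in *Gm40977* every null embryo was below, against 0.149%. Of those 23, 15 had reached 5 CPM in null embryos only, and among the 120 chosen on wild-type level 8 had every null embryo above. Of the 43 genes called higher against het, 33 (76.7%) were also called higher against wild-type, which is 82.5% of the latter list. *Gm32856*, named after its values were seen, was the other gene called lower against wild-type.

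The balance of rises and falls depended on the scaling. TMM scaling assumes that most genes do not change. When libraries were scaled to their ERCC counts instead, the median of all genes moved to -1.08 on the log2 scale in null against het embryos, and 25 of the 153 were called higher and 29 lower. Over all genes tested, 289 were then called higher and 4487 lower. The median of the 153 was -0.30 under this scaling, above that of all genes. Thus 16.3% of the 153 were called higher beside 2.15% of all genes, and 19% lower beside 33.4%. All changes above are relative to the bulk of the transcriptome.

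Het and wild-type embryos were compared to see whether loss of a single *Dis3* copy was accompanied by changes. No lncRNA gene was called in either direction by edgeR or by DESeq2, with 13 of the 153 at an unadjusted p under 0.05. Over all genes tested the share called was 0% in both directions with edgeR, while DESeq2 called 37 genes higher and 28 lower. The median log2 fold change of the 153 was -0.32, beside -0.03 over all genes. Most het embryos were of E2.75 and most wild-type embryos of E2.5, so stage and genotype are partly mixed here. The fit with stage as a covariate gave a median of -0.20, beside -0.01 over all genes. In that fit 6 of the 153 had an unadjusted p under 0.05. *Neat1* medians were 39.5 CPM in het and 12.2 CPM in wild-type embryos with overlapping ranges.

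The stages were also fitted on their own. At E2.75, null against het embryos called 26 of the 153 higher and 6 lower, or 17% and 3.92%, beside 2.51% and 2.31% of all genes tested. Of these 26, 16 were genes that reached 5 CPM in null embryos only, and among the 120 genes chosen on wild-type level 10 were higher and 6 lower. Without E2.75 null replicate 3, 17 of the 153 were higher. At E2.5, with only 2 het embryos, edgeR called none of the 153, with 34 at an unadjusted p under 0.05, and DESeq2 called 26 higher and 2 lower. The background at E2.5 was 0% higher and 0.0126% lower with edgeR, and 1.61% higher and 0.548% lower with DESeq2. Against wild-type embryos, 17 were higher and 2 lower at E2.5 (all genes: 1.36% and 0.459%), and 16 higher and 6 lower at E2.75 (all genes: 2.19% and 2.35%). The 120 genes chosen on wild-type level gave 7 higher and 3 lower at E2.5, and 6 higher and 6 lower at E2.75. Without E2.5 wild-type replicate 6, the counts of the 153 at E2.5 were 13 higher and 0 lower. Leaving out 1 embryo lowered the rises against wild-type to 6 at E2.5 (without null replicate 4) and to 10 at E2.75 (without null replicate 1). A test of whether null against het differed between stages called none of the 153 by edgeR, with 11 at an unadjusted p under 0.05 and 1 called by DESeq2. Over all genes that test called 0% with edgeR, and 0.0702% higher and 0.174% lower with DESeq2.

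Wild-type embryos of both stages were compared for changes with time. No lncRNA gene was called higher at E2.75 and 7 were called lower, or 4.58%, with 23 of the 153 at an unadjusted p under 0.05, beside 3.74% of all genes tested called higher and 3.64% lower. The median log2 difference of the 153 was -0.48, beside 0.00 over all genes. *Gm49064*, a gene of 3 exons near *Zfp455*, ranged from 405 to 678 CPM in the 6 embryos at E2.5 and from 165 to 205 CPM in the 3 embryos at E2.75. The stages did not overlap, and the log2 difference was -1.50 (SE 0.27, adjusted p = 0.00237). *Eprn* went from 36.1 to 282 CPM (median 111) at E2.5 to 22.4 to 40.5 CPM (median 23) at E2.75, with a small overlap and a log2 difference of -2.14 (SE 0.53, adjusted p = 0.0196).

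The other genes called were *AU020206* (-1.11, adjusted p = 0.0512), *Epb41l4aos* (-1.85, adjusted p = 0.0775), *Gm47805* (-1.94, adjusted p = 0.0979), *C78283* (-3.18, adjusted p = 0.0921) and *9130204K15Rik* (-4.22, adjusted p = 0.0989). *C78283* ranged from 13 to 60.0 CPM at E2.5 and from 0.608 to 10.1 CPM at E2.75. *9130204K15Rik* had no count in 2 of 3 embryos at E2.75. These calls rested on few embryos: leaving out 1 embryo at a time gave 2 to 9 lower, with 2 when E2.75 wild-type replicate 1 was left out, and only 1 of the 7 calls was kept in every such fit. With ERCC scaling, under which all genes had a median difference of 0.89, the direction of the counts turned, with 10 called higher (6.54%) and none lower. Over all genes tested, 17.2% were then called higher and 0.316% lower.

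**Figure D4:**
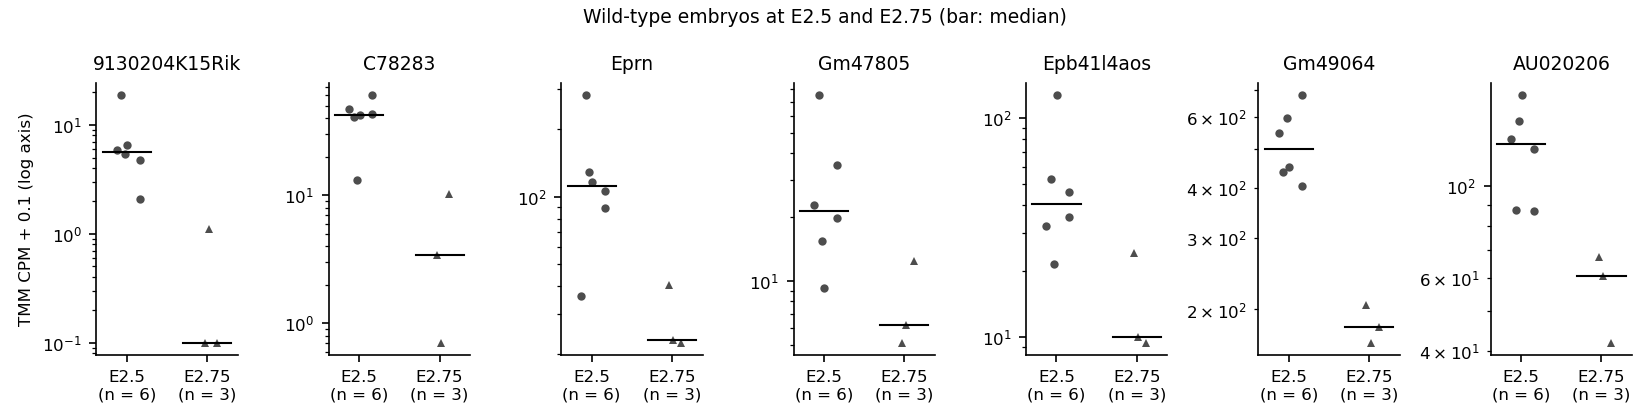
TMM-scaled CPM plus 0.1 on a log axis in wild-type embryos at E2.5 (n = 6) and E2.75 (n = 3) for the 7 lncRNA genes called lower at E2.75, with a bar at the median. *Gm49064* falls from between 405 and 678 CPM to between 165 and 205 CPM.

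Of the genes linked to the X chromosome, *Xist* and *Ftx* were expressed, *Jpx* was below the level at 0.998 CPM, and *Firre* is not annotated as a lincRNA. *Xist* ranged from 0.413 to 2753 CPM in wild-type, from 1.74 to 1772 CPM in het and from 2.18 to 2737 CPM in null embryos. The groups overlapped almost fully, the log2 fold change being 1.12 (SE 1.55, adjusted p = 0.773), and the labels do not give the sex of the embryos. *Ftx*, another noncoding gene of the X-inactivation centre, had -0.98 on that scale (SE 1.39). Of the imprinted genes *H19*, *Meg3*, *Mirg*, *Rian* and *Peg13*, none reached 0.5 CPM.

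Among the nuclear RNAs, *Neat1* was called higher, and *2900097C17Rik*, the *Norad* gene, had a log2 fold change of 0.99 (SE 0.28, adjusted p = 0.0456), just under the 2-fold limit. *Norad* levels were 35.0 to 84.6 CPM in null and 12.4 to 49.1 CPM in het embryos, with overlap. Of the Platr genes, described as pluripotency-associated transcripts in stem cells, 4 were expressed. *Platr27* ranged from 11.6 to 63.9 CPM in null and from 4.65 to 26.1 CPM in het embryos and was called higher (log2 fold change 1.61, SE 0.45, adjusted p = 0.0405). With ERCC scaling *Platr27* had 0.62 and was no longer called (adjusted p = 0.293). *Platr23* (1.37, adjusted p = 0.11), *Platr4* (1.38, adjusted p = 0.41) and *Platr10* (0.95, adjusted p = 0.24) did not pass against het, and *Platr4* and *Platr10* passed against wild-type (adjusted p = 0.0729 and 0.0807). *Lncenc1*, needed for naive pluripotency in stem cells, ranged from 0 to 57.0 CPM in null and from 9.64 to 145 CPM in het embryos, with a log2 fold change of -1.52 (SE 0.80, adjusted p = 0.336).

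Further members carry small RNAs on their own strand. *Mir17hg*, the host of the *Mir17* cluster, ranged from 3.36 to 78.4 CPM in null and from 8.16 to 24.3 CPM in het embryos, with a log2 fold change of 0.63 (adjusted p = 0.654). *6720427I07Rik*, which spans *Mirlet7a-1*, *Mirlet7d* and *Mirlet7f-1*, had 1.82 and was not called. *2700038G22Rik*, which holds *Snord93*, was called higher at 2.29. The last 2 were named after their values were seen. The remaining hosts on the same strand, listed to complete the set, were not called. They were *Gm4675* with *Mir6241* (0.76), *Epb41l4aos* with the snoRNA gene *Gm23639* (0.035) and *Ftx* with *Mir421* and *Mir374b* (-0.98). Of the 7 genes named as microRNA hosts, only *Mir17hg* reached 5 CPM.

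Several expressed lncRNA genes start beside a coding gene. In 17 of the 153, a coding gene begins within 1 kb on the opposite strand, and 11 of these 17 (64.7%) were called higher in null against het embryos, beside 32 of the other 136 (23.5%). Among genes at 5 CPM in wild-type embryos the counts were 2 of 7 and 15 of 107, so 9 of the 11 divergent genes that rose were under 5 CPM in wild-type embryos. In 15 pairs where both genes were tested, the partner's log2 fold change ran from -1.30 to 1.2 with a median of 0.27. *Zfp281*, the partner of *Platr23* and a zinc-finger transcription factor, was called higher at 1.2 (adjusted p = 0.0539), and *Cyp2s1*, the partner of *Gm26707* and a cytochrome P450 gene, lower at -1.30 (adjusted p = 0.0181), while *Gm26707* had 3.0 and was called higher. *Mapk6*, a kinase gene whose start lies 179 bases from that of *4933433G15Rik*, had -0.23, and *Rpl34*, a ribosomal protein gene 62 bases from *Gm42997*, had 0.27.

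**Figure D5:**
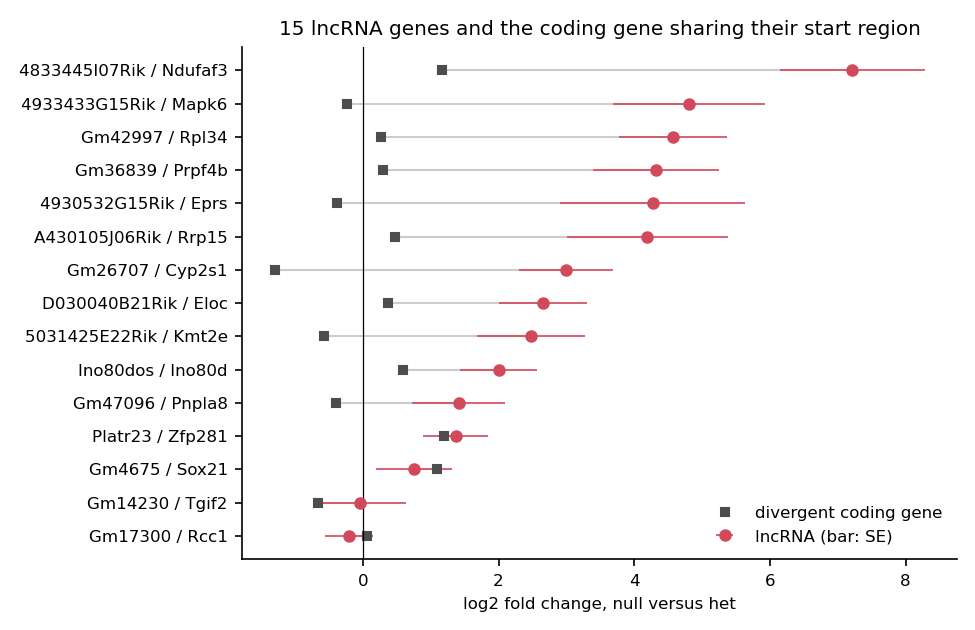
Log2 fold change in null against het embryos of 15 lncRNA genes (circles, bars give the SE) and of the coding gene that starts within 1 kb on the opposite strand (squares). The coding genes lie between -1.30 and 1.2, and the upper 10 lncRNA genes lie between 2.00 and 7.21.

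Of the 101 genes more than 5 kb from every coding gene, 26 were called higher (25.7%), beside 17 of the other 52 (32.7%), and both falls were among the former. Among genes at 5 CPM in wild-type embryos the order turned, with 14 of 80 (17.5%) and 3 of 34 (8.82%). Of 17 that overlap the span of a coding gene, 4 do so on the same strand, and 5 of the 17 were called higher, or 1 of 12 among genes at 5 CPM in wild-type embryos. Exons of 29 genes overlap exons of another gene, where unstranded counts cannot separate the partners, and 8 of these were called higher, beside 35 of the 124 without such overlap. At 5 CPM in wild-type embryos these counts were 2 of 21 and 15 of 93. On chromosome 6, *2310040G24Rik*, *Gm43936* and *Gm44386* lie within 50 kb on the minus strand, with log2 fold changes of 1.41, 4.06 and 2.30, the last 2 called. On chromosome 8, *Gm31805* was called at 4.22 while *Gm31659*, 10324 bases away on the same strand, had -0.43. *Gm43936*, *Gm44386*, *Gm31659* and *Gm31805* are named for their position next to a member, after their values were seen.

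POU6F1, a POU homeodomain transcription factor, was mapped to set its peaks beside the RNA data. Peaks found in both replicates against the IgG control numbered 17994, and one lay within 1 kb of an annotated start for 40 of the 153 genes (26.1%). The share was 65.4% over the genes tested and 78.4% over coding genes at 5 CPM. Against the mCherry-only control, with 3463 consensus peaks, it was 15 of the 153 (9.8%), beside 23.9% of the genes tested and 30.0% of coding genes at 5 CPM. These shares count a peak at any annotated start of a gene, and the number of starts was not matched. Of the 40 genes with a peak, 19 were called higher in null against het embryos, beside 24 of 113 without one. Among genes at 5 CPM in wild-type embryos these counts were 4 of 21 and 13 of 93. A GC box stood in the start window of 60% of the genes with a peak and of 11.5% of those without. The windows of genes with a peak had a median of 21 CpG dinucleotides, against 4. Each window lies at the outermost annotated start of a gene, which need not be the start with the peak. Binding was measured in stem cells and expression in embryos, so the values are set side by side only. Neither *Gm40977* nor *EU599041* had a peak at its start, and *Neat1* and *1700096K18Rik* did.

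The ends of the annotated transcripts bear on capture by oligo-dT. A poly(A) signal, AATAAA or ATTAAA, lay in the last 40 bases of at least 1 annotated transcript in 99 of the 153 genes (64.7%), beside 89.3% of expressed coding genes. The share was 76.7% in the 43 genes called higher and 59.3% in the 108 not called. In 14 of the 153 (9.15%), every annotated end was followed by genomic sequence with at least 7 A in 10 bases, where oligo-dT could prime on genomic or unprocessed sequence, beside 0.395% of coding genes. Of the 14, 5 were among the 43 called higher. Of those 43, 25 had reached 5 CPM in null embryos only. The counts and shares for called genes were not split by wild-type level. Both rules depend on how many transcripts a gene has annotated, which was not matched between lncRNA and coding genes.

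Of 26 RNA decay factors tested from a fixed list of the exosome, its nuclear cofactors and related enzymes, *Dis3* was called lower at -2.06 (SE 0.53, adjusted p = 0.0253) and *Dis3l*, the cytoplasmic relative of *Dis3*, higher at 2.73 (SE 0.89, adjusted p = 0.084), from a mean of 3.14 CPM in het to 20.7 CPM in null embryos. The other 24 did not pass, among them *Exosc10* at 0.08, *Mtrex* at 0.19, *Zcchc8* at -0.57 and *Zfc3h1* at 0.97 (adjusted p = 0.153).

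Just above the level of 5 CPM stood *8430426J06Rik* at 5.03, *Gm28578* at 5.06 and *Gm48306* at 5.1 CPM, and just below it *4632404H12Rik* at 4.995, *1700047F07Rik* at 4.993 and *B020004C17Rik* at 4.98 CPM. At a minimum of 1 CPM, 430 lincRNA genes were admitted and 368 of them tested, of which 71 were called higher in null against het embryos, and at 10 CPM it was 22 of 88 (25%).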

How the data were processed

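The authors trimmed the single-embryo reads (cutadapt 3.4), mapped them to GRCm38 (STAR 2.7.8a) and obtained the deposited values with HTSeq 0.11.4 in intersection-strict mode without strand, so each deposited value is a raw count per gene and is not normalized. For ChIP-seq the authors used Bowtie2 2.4.4 and MACS2 2.2.7.1 per replicate, and the deposited peak lists hold a score, a fold enrichment (ratio), and p-values and q-values as −log10. Here, edgeR 4.0.16 (R 4.3.3) ran its quasi-likelihood test on the counts after TMM scaling and filterByExpr, with Benjamini-Hochberg adjustment across every gene tested, in one fit of the 3 genotypes and in a fit per stage. Calls required both an adjusted p under 0.1 and an absolute log2 value above 1. Printed levels are TMM-scaled CPM. Exact permutation tests planned for single members were run only on genes already called in the same embryos, so their p-values are not given. Each library is 1 embryo, and litters are not given by the labels. Gene models were from GENCODE vM21 (55227 of 55487 identifiers matched) and sequences from RefSeq and GRCm38.p6.

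Named genes were the 15 of highest level, the 12 largest called rises and the called falls in null against het, up to 6 genes per direction called between stages in wild-type embryos, fixed gene lists and the genes next to the 5 CPM limit. The members and lists were chosen with earlier results of these data known. Scripts were tested on simulated data. Alternatives were DESeq2 1.42.0, its size factors in edgeR, ERCC scaling, no filter, stage as a covariate, fits of 2 genotypes, the replicate number as a block, other membership levels and leaving out each embryo.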

Additional observations from a re-analysis of the deposited data

Results flagged for a closer look

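In 138 sets of the 7 or 9 embryos of 1 genotype, each for a named gene or the summed share of the lncRNA genes, a single embryo stood far from the rest on the log2 scale in 18 (13%), where chance alone gives about 1 in 20. Levels are TMM-scaled CPM. Among null embryos, E2.75 replicate 1 had 1257 CPM of *Malat1* while the others had 430 to 635. In E2.75 null replicate 3, *Gm33466* was at 0.138 CPM (others 30.8 to 138) and *Gm48306* at 0 (others 3.36 to 22.3). *AC163629.2* was at 8.24 CPM in E2.5 null replicate 3 (others 25.2 to 58) and *4930532G15Rik* at 0 in the same embryo (others 7.17 to 31.3). *4933433G15Rik* was at 4.78 CPM in E2.5 null replicate 1 (others 24.8 to 46.5), *Platr4* at 0.51 CPM in E2.5 null replicate 2 (others 10.4 to 24), and *9130204K15Rik* at 0 in E2.75 null replicate 1 (others 4.59 to 37.4).

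Among het embryos, *1700020I14Rik* was at 157 CPM in E2.5 replicate 2 (others 65.7 to 79.9), where *B930059L03Rik* was at 0 (others 1.48 to 4.86). *Gm30373* was at 9.34 CPM (others 0.186 to 0.995) and *2900097C17Rik* at 12.4 CPM (others 28 to 49.1) in E2.75 replicate 2. *C78283* was at 0.106 CPM in E2.75 replicate 5 (others 8.55 to 43.5). Among wild-type embryos, *D930016D06Rik* was at 22.1 CPM (others 65.1 to 164) and *AC163629.2* at 0.799 CPM (others 0 to 0.145) in E2.75 replicate 1. *Gm43332* was at 0.78 CPM in E2.75 replicate 2 (others 0 to 0.206), *Platr23* at 4.05 CPM in E2.75 replicate 3 (others 15.2 to 43.4) and *Gm4961* at 42.4 CPM in E2.5 replicate 6 (others 73.2 to 91.4), the wild-type embryo with the low *Dis3* level.

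Reads not wholly inside annotated exons, which entered none of the tests, had a median share of 39.5% in null embryos, while the other embryos ranged from 21% to 33.4%.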

How the results depend on the processing

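Percentages in brackets are the shares of all genes tested under the same setting. In null against het embryos, 43 genes higher and 2 lower became 25 and 29 with ERCC scaling (2.15% and 33.4%) and 17 and 2 with membership by wild-type level. A minimum of 1 CPM gave 71 and 4, and one of 10 CPM gave 22 and 2. Only 1 was lower when the fit held those 2 genotypes (2.52%). Against wild-type, 40 higher and 3 lower became 16, 64 and 23 higher with membership by wild-type level, 1 CPM and 10 CPM. The number lower became 5 with ERCC scaling (3.5%), DESeq2 (1.4%) or 1 CPM. At E2.5, null against het gave 4 higher and 1 lower without the filter (0.0472% and 0.064%). It gave 7 and 11 with ERCC scaling (0.245% and 12%) and 26 and 2 with DESeq2 (1.61% and 0.548%). Null against wild-type at E2.5 gave 7 higher with ERCC scaling (0.327%), and 38 higher and 5 lower with DESeq2 (2.75% and 1.68%). At E2.75, null against het gave 47 higher with DESeq2 (3.31%) and 12 lower with ERCC scaling (15%). Null against wild-type at E2.75 gave 29 higher without the filter (1.63%) and 42 with DESeq2 (4.01%). The stage difference gave 1 higher and 2 lower without the filter (0.131% and 0.0982%) and 1 lower with DESeq2 (0.174%). In wild-type embryos, E2.75 against E2.5 gave 5 higher without the filter (4.59%). It gave 10 higher and 0 lower with ERCC scaling (17.2% and 0.316%), and 5 higher and 14 lower with DESeq2 (2.91% and 3.05%). The cause of these shifts was not tested. The mCherry-only control left 15 genes with a POU6F1 peak, and without thinning the median number of genes detected was 146.

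Same-numbered embryos of different genotypes did not deviate together (correlations of -0.11 to 0.086 in 17 pairs, 0 over 0.1). The labels do not say what the number stands for, and whether such embryos shared a litter or batch was not tested. With the replicate block, null against het gave 19 higher and 0 lower (12.4% and 0%), beside 1.61% and 0.865% of all genes. Null against wild-type gave 30 and 3 (19.6% and 1.96%), beside 2.88% and 1.3% of all genes. At E2.5 the block gave 0 and 0 against het (all genes: 0% and 0%) and 6 and 1 against wild-type (all genes: 0.182% and 0.0755%). At E2.75 it gave 7 and 0 against het (all genes: 0.284% and 0.36%) and 11 and 2 against wild-type (all genes: 0.706% and 0.72%). The stage difference stayed at 0 with the block.

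Leaving out each embryo in turn gave 32 to 45 higher and 0 to 3 lower in null against het, 31 to 40 and 3 in null against wild-type, and 0 in het against wild-type and in the stage difference. At E2.5 it gave 0 higher and 0 to 1 lower against het, and 6 to 16 and 0 to 3 against wild-type, the lowest without null replicate 4. At E2.75 it gave 17 to 31 and 3 to 7 against het, the lowest rise without null replicate 3, and 10 to 22 and 3 to 6 against wild-type, the lowest rise without null replicate 1. Between stages in wild-type embryos it gave 0 to 2 higher and 2 to 9 lower. Of 45 calls in null against het, 30 were kept in every such fit, 39 under every other tool, filter and design apart from the ERCC scaling and the block, and 27 with ERCC scaling.

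Some log2 fold changes of null over het turned sign, none of them called with TMM scaling. With ERCC scaling they were -0.61 for *Xist*, -0.96 for *D930016D06Rik*, -0.72 for *AU020206*, -0.73 for *1700020I14Rik*, -1.21 for *Gm4961*, -0.55 for *Gm33466*, -0.20 for *2900097C17Rik*, -0.30 for *Mir17hg* and -0.038 for *Platr23*. With the replicate block they were 0.13 for *Malat1*, -0.20 for *Gm4961* and 2.19 for *Ftx*. Stage as a covariate gave -0.11 for *Gm4961* and 0.16 for *Ftx*, and no filter -0.0802 for *Gm4961*. Leaving out 1 embryo gave -0.39 to 0.033 for *Gm49064*, -0.15 to 0.21 for *Gm46430*, -0.25 to 0.37 for *Gm4961* and -0.12 to 0.81 for *Mir17hg*.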
